A study of Rattus norvegicus with 12 samples.

Results

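Selenoprotein genes encode proteins that carry selenocysteine, and 10 of them were followed here in primary rat oligodendrocyte precursor cells (OPCs): Gpx1, Gpx4, Selenow, Selenot, Selenoh, Selenof, Selenom, Selenok, Selenos and Msrb1. They occupied 11 of the 30562 rows of the count table, because Selenow had 2 rows with different Ensembl identifiers (ENSRNOG00000067799 and ENSRNOG00000051483). These genes were chosen by their difference between the same 12 libraries described below, so their own values and calls are a description, no p is given for them, and nothing is supported with them. The remaining 14 selenoprotein genes of the rat, of 24 listed in all, were not part of that choice by name, but they were left out with the same values in view.

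Selenocysteine is inserted at UGA codons, which elsewhere stop translation, and its insertion needs a stem-loop in the 3′ untranslated region of the mRNA, the SECIS element, the protein Secisbp2 that binds it, and a dedicated tRNA and elongation factor. Most selenoproteins are oxidoreductases in which selenocysteine sits at the active site. Glutathione peroxidases reduce peroxides with glutathione, thioredoxin reductases keep thioredoxin reduced, methionine sulfoxide reductases repair oxidised methionine, and several small selenoproteins of the endoplasmic reticulum (ER) take part in protein folding and in the disposal of misfolded proteins. In oligodendrocyte-lineage cells, which make lipid-rich membrane and hold much iron, Gpx4 is known for protecting membranes from lipid peroxidation.

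The cells were cultured from the cerebral cortex of wild-type Sprague-Dawley rats at P1 or P2 in medium with FGF-2, PDGF-AA and B27. Mild-hypo-OPCs were kept at an FiO2 of 5%, for 6 hours by the labels of the libraries and for 6 days by the methods of the study, and standard OPCs were kept in room air. There were 6 libraries per group, and the labels do not say that they came from separate cultures, so every error and p-value below measures the spread between libraries. A legend of the study counts fewer biological replicates per group than there are libraries, so some libraries may share a culture, n = 6 below counts libraries, and the errors would then be too small. The question was how mild hypoxia alters the RNA of cultured OPCs.

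Total counts of the 6 mild-hypo-OPC libraries ran from 4111669 to 9022324, those of the 6 standard OPC libraries from 1356079 to 2797513, so the groups did not overlap in depth, and an effect of depth and an effect of hypoxia cannot be told apart. Ribosomal RNA rows took 17.4 to 25.25% of counts in mild-hypo-OPCs, against 23.87 to 38.42% of them in standard OPCs. Standard OPC libraries 1 and 2 lay apart from the other 4 in most selenoprotein rows, as described with each gene. They were the deepest of their group, at 2797513 and 2295080 counts, with library 3 next at 2240615. The OPC markers Pdgfra, Cspg4, Olig1, Olig2 and Sox10 all passed the filter on low counts, none was called, and their summed level was 1748 to 1884 CPM (counts scaled to a common library total) against 1532 to 1801 CPM in standard OPCs. Of the marker lists of other cells, the neuron list reached 119 to 135 against 65.2 to 105, the microglia list 32.2 to 44.7 against 12.7 to 31.3 and the astrocyte list 560 to 674 against 504 to 565 CPM, while none of the 4 endothelial and mesenchymal markers in the table passed the filter, and Lum was at 0 in every library. Of those lists, 4 astrocyte, 2 microglia and 2 neuron markers passed the filter. Aqp4, Slc1a3, Csf1r and Tubb3 were called higher in mild-hypo-OPCs by edgeR, and 0 were called lower, beside 6.99% and 17% of all genes tested. The others that passed the filter were not called, with log2 fold changes of 0.12 for Gfap, 0.59 for C1qa, 0.29 for Syt1 and -0.27 for Slc1a2. Below the filter, Aldh1l1, Aif1 and Rbfox3 had lower means in mild-hypo-OPCs, and Cx3cr1, Itgam, P2ry12 and Snap25 had higher ones. Most of the neuron list was Tubb3, with means of 97.7 CPM in mild-hypo-OPCs and 58.7 CPM in standard OPCs. The part of these cells in the selenoprotein values was not tested, and in bulk RNA fewer cells of a type and less RNA per cell cannot be told apart.

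All 9 selenoprotein rows that passed the filter, a CPM above 10 in at least 1 library, had lower levels in mild-hypo-OPCs than in standard OPCs. CPM here is scaled by TMM factors, and log2 fold changes are mild-hypo-OPCs relative to standard OPCs with the standard error (SE) of edgeR's quasi-likelihood fit. The median log2 fold change of the 9 rows was -0.75, beside a median of -0.00 over all 8938 genes tested. The range was from -2.51 to -0.35. The -2.51 was that of the Selenow row ENSRNOG00000051483, which passed the filter only through standard OPC libraries 1 and 2. Its lower level and call are thus tied to the filter, and the next lowest was Gpx4 at -1.32. As genes picked on this contrast, all 9 were among those edgeR called lower at an adjusted p of 0.05, where the background was 17% of genes called lower and 6.99% called higher. The number among the called genes was 3 of 9 with replicates 1 to 3 only, 8 of 8 with replicates 4 to 6 only, and 5 of 9 with scaling by library size only. Over all genes tested in those settings, 343 of 8554, 1381 of 8785 and 408 of 8938 were called lower. In 5 rows every mild-hypo-OPC library lay below every standard OPC library, which held for 5.4% of all genes tested. The choice of genes used this contrast, so these counts carry no weight as evidence about selenoproteins. Selenom and Selenoh did not pass the filter.

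**Figure D1:**
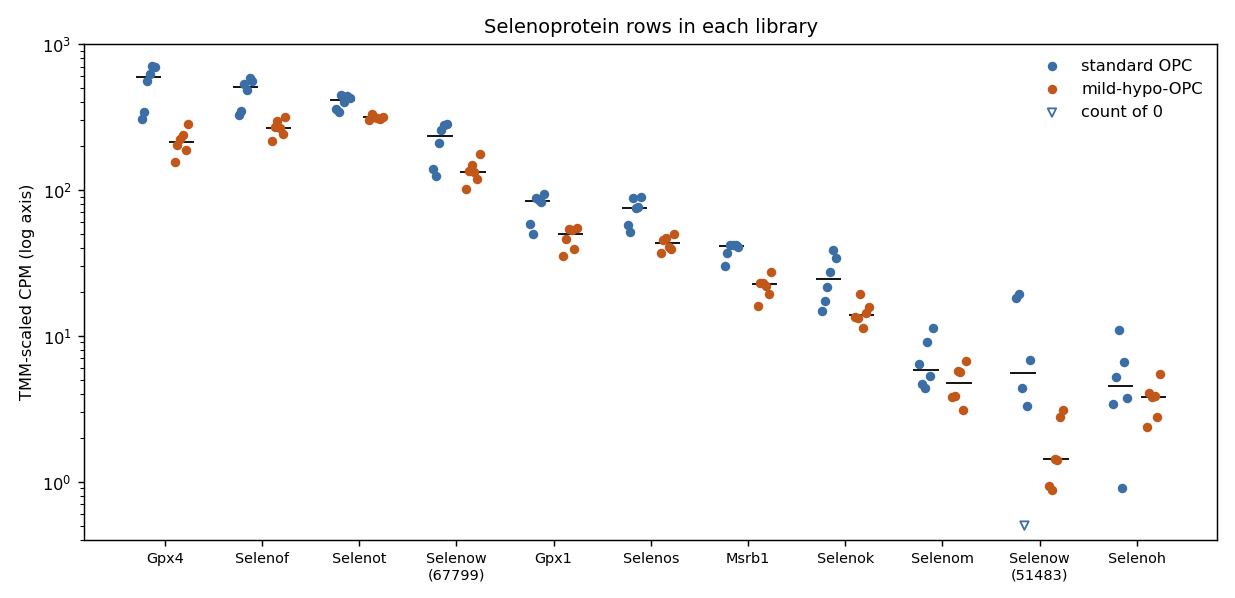
TMM-scaled CPM (log axis) of the 11 selenoprotein rows in each of the 12 libraries, one point per library in replicate order from left to right, with standard OPCs in blue, mild-hypo-OPCs in orange, and the group median as a black line. Gpx4 ran from 156 to 282 CPM in the mild-hypo-OPC libraries and from 308 to 702 CPM in the others, and the 2 leftmost standard OPC points of most genes, libraries 1 and 2, sat nearest to the mild-hypo-OPC points.

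Among the glutathione peroxidases, Gpx4, which reduces lipid hydroperoxides within membranes, showed the largest difference of the well-counted genes. Its level was 156, 204, 223, 238, 188 and 282 CPM in mild-hypo-OPC libraries 1 to 6. In standard OPC libraries 1 to 6 it was 308, 341, 560, 624, 702 and 698 CPM. The groups did not overlap, but standard OPC libraries 1 and 2 were closer to the highest mild-hypo-OPC library than to the other 4 standard OPC libraries. The means were 215 ± 43.4 (SD, n = 6) and 539 ± 174 CPM (SD, n = 6), and the log2 fold change was -1.32 with an SE of 0.18. Behind these levels stood 1149 to 1546 reads in each mild-hypo-OPC library and 654 to 1065 in each standard OPC library.

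Gpx1, the abundant cytosolic peroxidase for hydrogen peroxide, was lower by a smaller amount, with groups that overlapped. Mild-hypo-OPC libraries ran from 35.3 to 54.7 CPM with a median of 49.5, and standard OPC libraries from 50.1 to 93.6 with a median of 83.5. Standard OPC libraries 1 and 2 stood at 58.6 and 50.1 CPM, and 3 of the 6 mild-hypo-OPC libraries lay below the lowest of them. The log2 fold change was -0.68 with an SE of 0.15. Gpx3, the secreted peroxidase of the same family and not among the chosen genes, was at 35.7 to 47.6 CPM in mild-hypo-OPCs against 24.9 to 39.0 CPM in standard OPCs, and its log2 fold change was 0.22 with an SE of 0.11, not called by edgeR (adjusted p = 0.159).

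Selenow and Selenot belong to a family of small proteins with a thioredoxin-like fold, Selenow in the cytosol and Selenot in the ER membrane. The abundant Selenow row (ENSRNOG00000067799) was at 102 to 176 CPM in mild-hypo-OPCs, with a median of 134, and at 125 to 284 in standard OPCs, with a median of 233. Standard OPC libraries 1 and 2, at 140 and 125 CPM, lay inside the range of mild-hypo-OPCs, while libraries 3 to 6, at 209, 257, 281 and 284, lay above all of it. The log2 fold change was -0.66 with an SE of 0.18, and it was -0.27 among replicates 1 to 3 and -0.94 among replicates 4 to 6.

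The other Selenow row (ENSRNOG00000051483) held few reads and followed another pattern. It had 9, 5, 9, 7, 17 and 17 reads in mild-hypo-OPC libraries 1 to 6 and 48, 37, 8, 0, 5 and 9 in standard OPC libraries 1 to 6. On the CPM scale standard OPC libraries 1 and 2 were at 18.1 and 19.3, every other standard OPC library was between 0 and 6.79, and the mild-hypo-OPC libraries were between 0.88 and 3.10. Standard OPC libraries 1 and 2 were therefore the highest in this row and the lowest in the other. The log2 fold change of -2.51, with an SE of 0.51, rests on those 2 libraries, since the row passed the filter only through them and dropped out without them. How reads were divided between the rows is not known, and the summed rows are given with the alternatives below.

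Selenot had the smallest difference and the tightest values. Mild-hypo-OPC libraries lay between 303 and 329 CPM with a median of 314, and standard OPC libraries between 339 and 444 with a median of 414. The groups did not overlap, and the gap between them was narrow, from 329 CPM in mild-hypo-OPC library 2 to 339 CPM in standard OPC library 2. The log2 fold change was -0.35 with an SE of 0.08. Selenoh, a nucleolar redox protein, had only 17 to 30 reads in mild-hypo-OPC libraries and 1 to 20 in standard OPC libraries. Its level was 2.37 to 5.47 CPM against 0.91 to 10.99 CPM, with the mild-hypo-OPCs inside the range of the standard OPCs, and no difference was detectable at this depth.

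Among the other ER selenoproteins, Selenof, which binds the glucosyltransferase Uggt1 that checks the folding of glycoproteins, was the best counted. Mild-hypo-OPC libraries held 217, 270, 296, 265, 241 and 317 CPM. Standard OPC libraries held 327, 346, 535, 485, 583 and 553 CPM. The groups did not overlap, with mild-hypo-OPC library 6 at 317 close to standard OPC library 1 at 327, and the log2 fold change was -0.81 with an SE of 0.14. Selenom, a related thioredoxin-like protein of the ER lumen, had 19 to 37 reads in mild-hypo-OPC libraries and 8 to 17 in standard OPC libraries, and its levels of 3.12 to 6.74 and 4.40 to 11.3 CPM overlapped.

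Selenos and Selenok are ER membrane proteins of the degradation pathway for misfolded proteins, where Selenos links the ATPase Vcp to the Derlin channel, and Selenok also supports protein palmitoylation by Zdhhc6. Selenos was at 37.1 to 49.6 CPM in mild-hypo-OPCs, with a median of 42.9, and at 51.7 to 89.8 in standard OPCs, with a median of 75.5. Its groups did not overlap, although standard OPC libraries 1 and 2, at 57.4 and 51.7 CPM, were again the lowest of their group. The log2 fold change was -0.75 with an SE of 0.12. Selenok was at 11.3 to 19.4 CPM in mild-hypo-OPCs against 14.7 to 38.9 CPM in standard OPCs, from 56 to 131 and 30 to 59 reads, and its groups overlapped through standard OPC libraries 1 and 2 at 14.7 and 17.2 CPM. Its log2 fold change of -0.74, with an SE of 0.20, was -0.18 among replicates 1 to 3 and -1.27 among replicates 4 to 6.

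Msrb1, which reduces methionine-R-sulfoxide, was lower in every mild-hypo-OPC library than in any standard OPC library. Mild-hypo-OPC libraries held 15.9, 23.2, 23.2, 22.1, 19.4 and 27.3 CPM. Standard OPC libraries held 30.2, 37.1, 41.8, 41.8, 42.2 and 40.8 CPM. Standard OPC library 1 was the nearest to the mild-hypo-OPCs. The means were 21.8 ± 3.89 and 39.0 ± 4.68 CPM (SD, n = 6 each), and the log2 fold change was -0.83 with an SE of 0.13.

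The order of the libraries was shared by most rows. Standard OPC libraries 1 and 2 were the 2 lowest of their group in 8 of the 9 rows, all but the sparse Selenow row. Mild-hypo-OPC library 1, the deepest of all, was the lowest of its group in 7 rows, and library 6 was the highest in 7. In 8 rows every mild-hypo-OPC library lay below standard OPC libraries 3 to 6. This count sets aside libraries 1 and 2 after their values were seen, and its share over all genes was not taken. Summed over the 11 rows, the level was 887 to 1253 CPM in mild-hypo-OPCs with a median of 1080, and 1322 to 2257 in standard OPCs with a median of 2007. Libraries 1 and 2 of the standard OPCs accounted for the lower end of that range, at 1322 and 1336 CPM, and the next was at 2006.

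After the group mean was taken from each library, the deviations of a row over the 12 libraries were compared with the mean deviation of the other 8 tested rows. Pearson's r was 0.82 for Selenof, 0.76 for Selenos, 0.73 for Gpx4, 0.72 for Gpx1, 0.72 for Msrb1, 0.71 for the abundant Selenow row, 0.63 for Selenot and 0.55 for Selenok, and it was -0.53 for the sparse Selenow row. The 5 genes outside the lists with deviations most like the mean of the rows were Map2k2, a MAP kinase kinase (0.96), Atp6v0b, a subunit of the vacuolar proton pump (0.94), Fabp5, a fatty acid binding protein (0.93), Ift25 (0.93) and the mitochondrial prohibitin Phb2 (0.93). These correlations share the libraries, their depth and their scaling and are given as descriptions.

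The promoters of 4 of these genes are shown because the difference between the groups was an exposure to low oxygen and hypoxia-inducible factors bind the cores ACGTG and GCGTG. They are the 250 bases before and the 50 bases from the annotated start in RefSeq for the GRCr8 assembly, 5′ to 3′ on the strand of the gene, with cores on either strand in capitals. Gpx4 is the most upstream of 3 annotated starts, at chr7:10303580-10303879 on the minus strand. Selenow is at chr1:85732654-85732953 on the minus strand, Selenos at chr1:129069990-129070289 on the plus strand and Gpx1 at chr8:117905212-117905511 on the plus strand.
Gpx4: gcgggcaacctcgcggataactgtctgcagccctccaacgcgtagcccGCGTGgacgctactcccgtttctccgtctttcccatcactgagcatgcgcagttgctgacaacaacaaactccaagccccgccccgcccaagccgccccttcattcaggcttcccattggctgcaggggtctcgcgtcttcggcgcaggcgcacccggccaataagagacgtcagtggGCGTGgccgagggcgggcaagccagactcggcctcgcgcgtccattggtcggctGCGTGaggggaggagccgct
Selenow: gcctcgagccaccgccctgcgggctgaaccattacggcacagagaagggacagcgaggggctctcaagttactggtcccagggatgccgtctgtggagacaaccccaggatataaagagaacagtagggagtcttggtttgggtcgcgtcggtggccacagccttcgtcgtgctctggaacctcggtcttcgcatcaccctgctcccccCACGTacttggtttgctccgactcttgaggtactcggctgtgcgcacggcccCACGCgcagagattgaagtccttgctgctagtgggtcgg
Selenos: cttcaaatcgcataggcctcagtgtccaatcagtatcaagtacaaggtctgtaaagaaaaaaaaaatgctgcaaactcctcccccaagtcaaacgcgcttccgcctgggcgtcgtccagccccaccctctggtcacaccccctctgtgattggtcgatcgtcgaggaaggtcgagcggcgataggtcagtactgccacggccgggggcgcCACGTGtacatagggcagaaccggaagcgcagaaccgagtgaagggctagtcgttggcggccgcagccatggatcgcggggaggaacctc
Gpx1: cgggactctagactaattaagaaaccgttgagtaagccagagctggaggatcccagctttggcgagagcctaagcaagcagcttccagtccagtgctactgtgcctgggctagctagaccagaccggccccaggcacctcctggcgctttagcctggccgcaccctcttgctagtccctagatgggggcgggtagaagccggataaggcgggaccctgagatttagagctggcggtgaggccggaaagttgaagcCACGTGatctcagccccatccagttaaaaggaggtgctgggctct

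A core ACGTG, on either strand, was present in the promoters of 6 of the 10 selenoprotein genes, Gpx1, Msrb1, Selenoh, Selenom, Selenos and Selenow, and in 27.8% of tested genes with a promoter in the table. GCGTG was present in 6 of 10, Gpx4, Selenof, Selenoh, Selenok, Selenom and Selenow, and in 53.8% of those genes. The palindrome CACGTG of Selenos and Gpx1 counts as ACGTG on both strands. At least 1 of the cores was present in 9 of 10, all but Selenot, in 7 of the 14 other selenoprotein genes, and in 65.8% of tested genes. Each of the promoters printed above holds a core, and that of Selenot is not printed. The antioxidant response core TGACNNNGC was present in 1 of 10, Selenok, in 2 of the 14 others, Gpx2 and Txnrd1, and in 15.9% of tested genes. A match is a match of letters within this window and shows no binding.

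The other selenoprotein genes differed in both directions, and only 7 of the 14 passed the filter. Called higher by edgeR were 2 of the 7 and called lower was 1, where 6.99% and 17% of all tested genes were, with a median log2 fold change of 0.05 over the 7. Selenon, an ER protein that supports calcium uptake and muscle function, was at 146 to 161 CPM in mild-hypo-OPCs against 96.2 to 125 CPM in standard OPCs without overlap, a log2 fold change of 0.40 with an SE of 0.07 (edgeR, adjusted p = 0.000836). Txnrd1, the cytosolic thioredoxin reductase, was at 93.1 to 112 CPM against 80.3 to 95.5, with 5 of 6 mild-hypo-OPC libraries above the highest standard OPC library, a log2 fold change of 0.27 with an SE of 0.08 (edgeR, adjusted p = 0.0147).

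Sephs2, which makes the selenium donor for selenocysteine and is itself a selenoprotein, was lower in mild-hypo-OPCs. It was at 59.7 to 69.7 CPM against 74.7 to 91.9 without overlap, a log2 fold change of -0.34 with an SE of 0.08 (edgeR, adjusted p = 0.00422). The calls of Txnrd1 and Sephs2 were lost when replicates 1 to 3 or 4 to 6 were used alone, with adjusted p of 0.122 and 0.173 for Txnrd1 and 0.118 and 0.0587 for Sephs2 by edgeR, whereas Selenon kept its call in both (0.0419 and 0.01). The secreted selenium carrier Selenop (0.04), the phospholipid enzyme Selenoi (0.05) and the mitochondrial Selenoo (-0.08) had log2 fold changes near 0 that edgeR did not call (adjusted p of 0.855, 0.750 and 0.731). Dio1, Dio2, Dio3, Gpx2, Txnrd2, Txnrd3 and Selenov stayed below the filter, with at most 41 reads in any library.

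**Figure D2:**
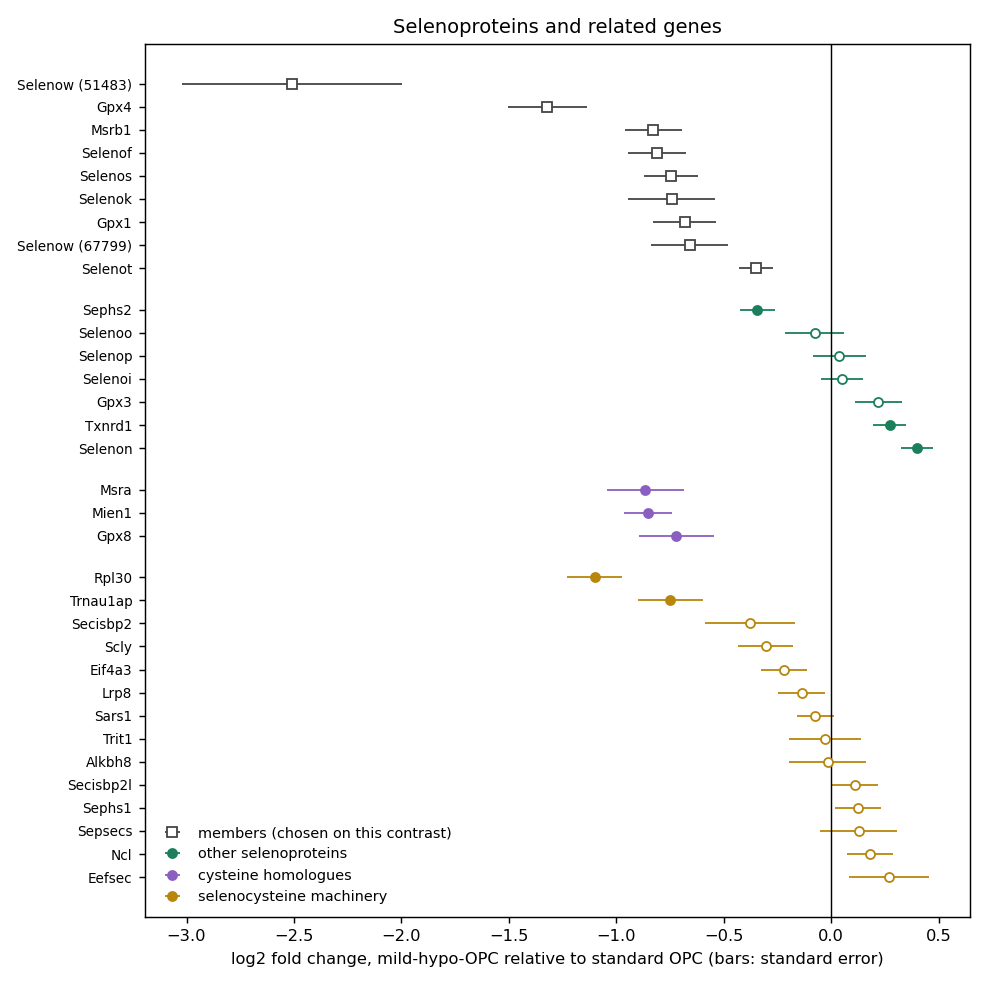
Log2 fold change of mild-hypo-OPCs relative to standard OPCs on the x axis, with bars for the SE, for each tested row of the chosen selenoproteins (open squares), the other selenoproteins, the cysteine homologues and the selenocysteine machinery (circles, filled where edgeR's adjusted p was under 0.05). The 9 chosen rows lie between -2.51, for the sparse Selenow row, and -0.35, and the 7 other selenoproteins between -0.34 and 0.40.

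Ratios of raw counts within a library do not depend on how libraries are scaled. The reads of the 11 rows divided by those of the 14 other selenoproteins gave 1.77 to 2.57 in mild-hypo-OPCs, with a median of 2.20, and 2.93 to 5.32 in standard OPCs, with a median of 4.42. Gpx4 reads per Selenon read were 1.01 to 1.94 in mild-hypo-OPCs against 2.46 to 7.30 in standard OPCs, with libraries 1 and 2 of the standard OPCs at 2.46 and 2.83 and the others at or above 5.01. Gpx4 reads per Txnrd1 read were 1.43 to 2.80 against 3.71 to 8.56. The groups did not overlap in any of these 3 ratios, which share the choice of genes and are no support. Selenon and Txnrd1, the divisors, were the 2 other selenoproteins called higher, and Gpx4 was picked on this contrast. The share of such gaps over other pairs of genes was not taken. Mild-hypo-OPC library 1, the deepest of the 12, had the lowest of each ratio. For the first ratio, mild-hypo-OPC libraries 1 to 6 had 1.77, 2.20, 2.33, 2.20, 2.045 and 2.57. Their totals were 9022324, 4873304, 5474102, 4111669, 4958045 and 4718242. Standard OPC libraries 1 to 6, with totals of 2797513, 2295080, 2240615, 1356079, 1664627 and 1561455, had 2.93, 2.94, 4.38, 4.45, 5.28 and 5.32. The part of depth in these ratios was not tested.

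**Figure D3:**
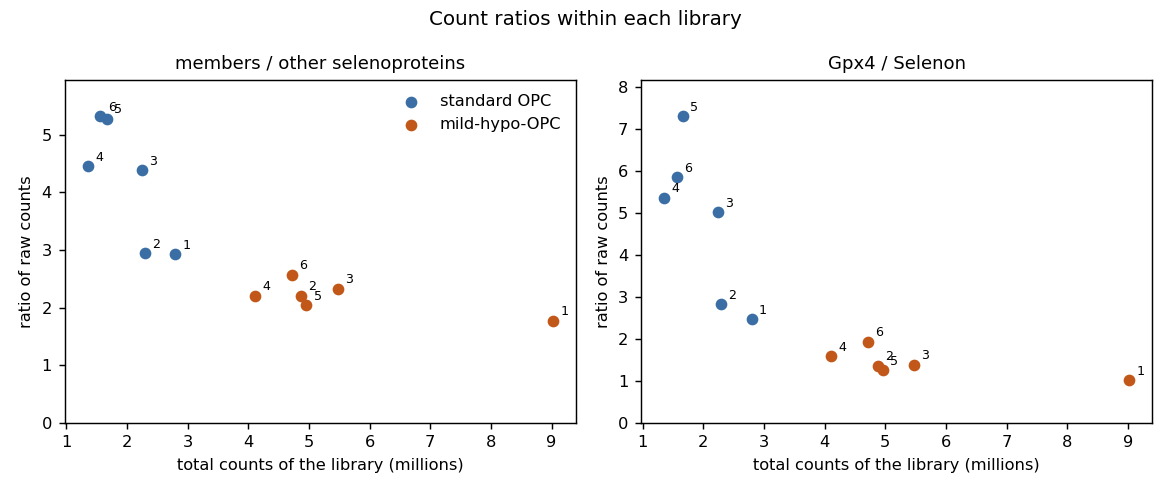
Ratio of raw counts within each library (y axis) against its total count (x axis), for the chosen over the other selenoproteins (left) and for Gpx4 over Selenon (right), with points numbered by replicate. Standard OPC libraries 1 and 2, at 2.93 and 2.94 in the left panel, lie between the other standard OPC libraries at 4.38 to 5.32 and the mild-hypo-OPC libraries at 1.77 to 2.57.

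A list of 8 genes, called cysteine homologues here, held relatives of selenoproteins with cysteine at the place of selenocysteine, and Msra. Msra acts on the same kind of substrate as Msrb1 but is not of its protein family. The 3 that passed the filter were all called lower, beside 17% of all tested genes, with a median log2 fold change of -0.85. Mien1, a relative of Selenow, was at 60 to 94.9 CPM against 111 to 165 without overlap, a log2 fold change of -0.85 with an SE of 0.11 (edgeR, adjusted p = 0.000142). Msra, which repairs the S form of methionine sulfoxide where Msrb1 repairs the R form, was at 5.97 to 10.6 CPM against 11.3 to 16.4 without overlap, a log2 fold change of -0.86 with an SE of 0.18 (edgeR, adjusted p = 0.00183). Gpx8, the ER peroxidase, had a log2 fold change of -0.72 with an SE of 0.18 (edgeR, adjusted p = 0.006), and 3 of its 6 mild-hypo-OPC libraries lay below the lowest standard OPC library. Gpx5, Gpx6, Gpx7, Msrb2 and Msrb3 did not pass the filter, and Gpx5 and Gpx6 had no reads in any library.

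Of the machinery that makes and decodes selenocysteine, 14 rows were tested, 2 were called lower and 0 higher by edgeR, and 3 had an unadjusted p under 0.05. That is near the 17% lower and 6.99% higher of all tested genes, and the median log2 fold change was -0.05. Rpl30, a ribosomal protein that also binds the SECIS element, was at 58.4 to 73.8 CPM against 92.6 to 175 without overlap. Its log2 fold change was -1.10 with an SE of 0.13 (edgeR, adjusted p = 8.6e-05). A further Rpl30 row had no reads in any library. Trnau1ap, a binding protein of the selenocysteine tRNA, was at 20.8 to 26.7 CPM against 24.5 to 56.0 with overlap, a log2 fold change of -0.75 with an SE of 0.15 (edgeR, adjusted p = 0.00147). The SECIS binding protein Secisbp2 had a log2 fold change of -0.38 (edgeR, adjusted p = 0.207), the selenocysteine lyase Scly one of -0.30 (0.0897), and the elongation factor Eefsec one of 0.27 (0.317). Secisbp2l, Sephs1, Sepsecs, Ncl, Eif4a3, Sars1, Trit1, Alkbh8 and the selenoprotein P receptor Lrp8 lay between -0.22 and 0.18 and were not called.

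Of the proteins that work with selenoproteins, 13 were tested, 4 were called lower and 0 higher by edgeR, beside 17% and 6.99% of all tested genes, with 6 at an unadjusted p under 0.05 and a median log2 fold change of -0.07. Thioredoxin 1, Txn1, the substrate of Txnrd1, was at 32.8 to 43.9 CPM against 47.5 to 101 without overlap, a log2 fold change of -1.01 with an SE of 0.16 (edgeR, adjusted p = 0.000235). The ER thioredoxin Txndc12 had a log2 fold change of -0.72 with an SE of 0.13 (adjusted p = 0.000534), the Derlin Derl2 -0.50 with an SE of 0.13 (adjusted p = 0.0074) and the mitochondrial thioredoxin Txn2 -0.40 with an SE of 0.11 (adjusted p = 0.0119), all by edgeR. The enzymes of glutathione synthesis and recycling, Gclc, Gclm, Gss and Gsr, the Selenof partner Uggt1, the Selenok partner Zdhhc6, and Derl1, Glrx and Vcp were not called.

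Gene span, the distance from start to end in RefSeq for GRCr8, was known for 95.6% of tested genes and went with the log2 fold change over all genes. The median log2 fold change was -0.33 for spans under 5 kb, where 42.3% of genes were called lower, and -0.14 for 5 to 10 kb, with 30.2% called lower. It was -0.03, 0.05 and 0.06 for 10 to 20, 20 to 50 and over 50 kb, with 18.6, 9.29 and 5.98% called lower. The chosen genes were short, with Gpx1 at 1127 bp, Gpx4 at 2797, Selenow at 5073 (1 RefSeq gene for both rows), Msrb1 at 5727, Selenok at 8583 and Selenos at 9768 bp, while Selenot spanned 17052 and Selenof 32778 bp. Of the related genes called lower, Mien1 (1294 bp), Sephs2 (2319), Rpl30 (3136) and Gpx8 (3756) fell in the shortest class. Msra, Trnau1ap, Txn1, Txn2, Txndc12 and Derl2 were longer. The log2 fold changes of the chosen rows, which their choice used, had a median of -1.001 in the shortest class and of -0.75 in the next, and they were -0.35 for Selenot and -0.81 for Selenof.

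With the trend on span taken out, an alternative chosen after seeing the data, the median of the 9 rows was -0.64. Gpx1 then stood at -0.17, Gpx4 at -1.01 and Selenof at -0.85. The part of span, and of any property that goes with it, in these values was not tested. RefSeq lists processed pseudogenes for 4 of the genes, 4 for Gpx4, 6 for Selenok and 1 each for Selenot and Selenow, none of which is a row of the count table under that symbol, and how reads shared with them were assigned is not known.

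**Figure D4:**
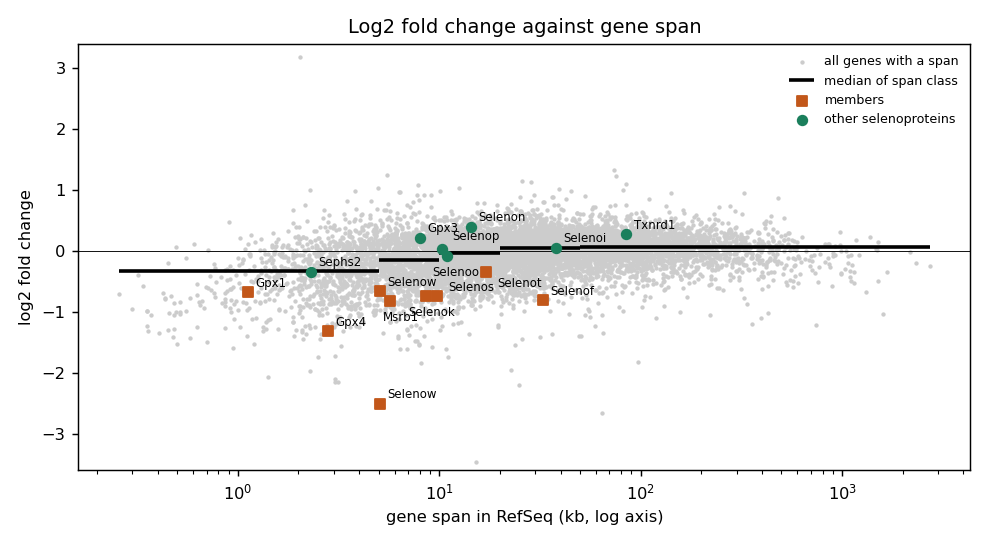
Log2 fold change (y axis) against RefSeq gene span in kb (log x axis) for all tested genes with a span in grey, the chosen selenoproteins as orange squares and the other selenoproteins as green circles, with black lines for the median of each span class. The median of all genes moves from -0.33 in the shortest class to 0.06 in the longest, and the position of the squares below 0 restates how these genes were chosen.

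The direction of the 9 rows held under most other ways of processing the counts, with exceptions for scaling by library size only and for log2 total count as a covariate. With every library thinned to the smallest total all 9 rows were lower, with a median of -0.79. With limma-voom, DESeq2 and upper-quartile factors all 9 were lower, with log2 fold changes for Gpx4 of -1.26, -1.30 and -1.24. With no correction for composition, where the median of all genes moved to 0.42, 8 of 9 rows were below 0, all 9 below that median, and Selenot stood at 0.09. With log2 total count as a covariate, 7 rows were below 0 and 2 above, Gpx1 at 0.11 and the abundant Selenow row at 0.47, none was called, and over all genes 43 were called lower and 0 higher. Without standard OPC libraries 1 and 2, also chosen after seeing the data, the median was -0.95 over the 8 rows that passed the filter. With the Selenow rows summed it was -0.74.

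**Figure D5:**
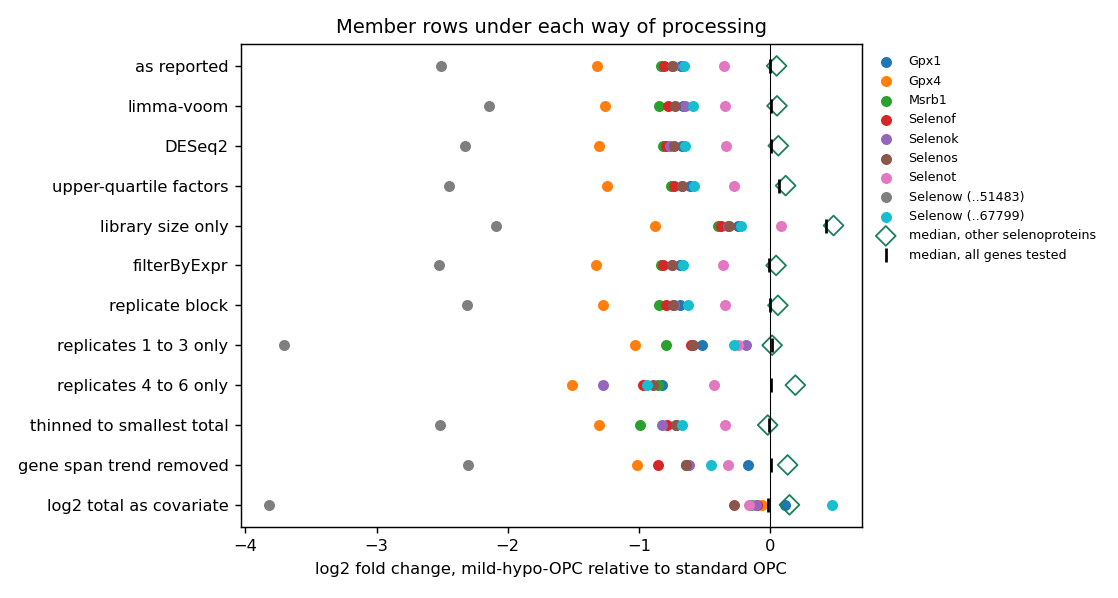
Log2 fold change of each tested selenoprotein row (points, x axis) under 12 ways of processing the counts (y axis), with the median of the other selenoproteins as a green diamond and of all genes as a black bar. Gpx4 stands at -1.32 as reported, at -1.03 in replicates 1 to 3 and at -1.51 in replicates 4 to 6, and at -0.06 where log2 total count was a covariate and where Gpx1 and the abundant Selenow row lie above 0.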

How the data were processed

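The authors trimmed 76 bp paired-end reads of strand-specific libraries (200 ng of total RNA) with Trimmomatic 0.36, checked them with FastQC 0.11.9, aligned them to mRatBN7.2 with STAR 2.7.9a and estimated gene counts with RSEM 1.3.3. The deposited table holds unnormalized counts, whole numbers, for each Ensembl gene, and how the estimates became whole is not given in the sources used here. All 12 columns were matched to libraries by label, and 0 were left unused.

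Rows that reached a CPM over 10 in 1 library or more were tested (8938 of 30562), scaled by TMM and fitted with glmQLFit and glmQLFTest of edgeR 4.0.16 in R 4.3.3, with group as the sole term and p-values adjusted by Benjamini and Hochberg's method over all genes tested. The SE is the one implied by the F statistic. limma 3.58.1 (voom, the method of the study) and DESeq2 1.42.0 were alternatives. The code was tested on simulated data. Total counts of 1356079 to 9022324 per library set the precision.

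The genes and lists were chosen with earlier results of these data known. Named were all rows of the 10 symbols, tested genes of the 4 related lists, and the 5 genes with the most similar deviations. Spans and promoters came from RefSeq (GRCr8), matched by symbol, and promoters were found for all 10 genes. No transcript lengths were used, so levels were not compared between genes.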

Additional observations from a re-analysis of the deposited data

Results flagged for a closer look

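Of 92 groups of 6 libraries tested for a library far from the others, 3 were past Dixon's critical value, where chance gives about 1 in 20. Selenoo, a mitochondrial selenoprotein outside the chosen genes, was at 19.76 CPM in standard OPC library 5, while the other standard OPC libraries lay at 12.08 to 14.29. Trnau1ap, the binding protein of the selenocysteine tRNA, was at 20.83 CPM in mild-hypo-OPC library 1, the deepest library, while the other mild-hypo-OPC libraries lay at 24.75 to 26.73. Glutaredoxin, Glrx, was at 19.13 CPM in mild-hypo-OPC library 6 and at 12.38 to 14.40 in the other mild-hypo-OPC libraries. None of the 9 rows of the chosen selenoproteins that passed the filter had such a library, and Selenom and Selenoh were not examined.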

How the results depend on the processing

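The median log2 fold change of the chosen selenoprotein rows was -0.75 and stayed negative under each alternative, with -0.32 when libraries were scaled by size only, -0.11 with log2 total count as a covariate, and -0.90 to -0.68 when 1 library was left out. The correlations of same-numbered deviations ran from -0.29 to 0.31, and only number 1 matched itself best. Such values cannot show whether same-numbered libraries shared a culture. With the replicate block the median was -0.74. Called lower over all genes were 1471 with the replicate block, 343 in replicates 1 to 3 and 1381 in replicates 4 to 6, against 1520.

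Scaling by library size only reversed Selenot (0.086), Sephs2 (0.091) and Txn2 (0.033), and the covariate reversed Gpx1 (0.11), the abundant Selenow row (0.47) and Txn2 (0.12); the cause was not tested. With library size only, where all genes had a median of 0.42, 408 genes were called lower and 5470 higher, and the numbers called were 5 higher and 0 lower of the other selenoproteins (2 and 1 as reported), 7 higher and 1 lower of the machinery (0 and 2), 1 lower of the cysteine homologues (3), and 7 higher and 1 lower of the partners (0 and 4). With the covariate none of these lists had a called gene. Other selenoproteins called higher were 1 in replicates 1 to 3, 1 in replicates 4 to 6 and 1 after thinning to the smallest total, with 0 lower in each. In replicates 1 to 3 the machinery had 1 and the partners 0 called lower. The machinery had 1 called higher in replicates 4 to 6, and 1 higher and 4 lower without standard OPC libraries 1 and 2. The partners had 1 called higher with DESeq2 and 1 with upper-quartile factors.

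Leaving out 1 library gave 0 to 1 partners called higher (1 without mild-hypo-OPC library 6) and 4 to 5 lower, 2 to 2 other selenoproteins higher and 1 to 1 lower, and 0 to 0 of the machinery higher and 2 to 4 lower (4 without standard OPC library 2). Among the related genes called one by one, 291 values kept direction and call, 30 lost the call and 3 reversed. A trend on protein length was planned and not run, since protein lengths were not used here, and gene span took its place. Depth limits Selenom, Selenoh and the sparse Selenow row.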
